A study of Mus musculus with 12 samples.

Results

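The 4 mouse Hox clusters were described here from their H3K27ac intervals and GLI1 sites, gene by gene and in order of paralogue number. The members are the Hox genes of HoxA on chromosome 6, HoxB on chromosome 11, HoxC on chromosome 15 and HoxD on chromosome 2. They number 38 genes (10, 10, 9 and 9 in turn) of 21900 protein-coding genes in the gene table. Each cluster was taken from its first to its last Hox gene, its core, together with 100 kb on either side. The side next to paralogue 1 is called the 3′ flank and the side next to paralogue 13 the 5′ flank. Positions are those of the mouse build mm10.

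The cells were cardiac progenitors grown from mouse embryonic stem cells of the line GLI1-FTA (strain A2Lox.cre), which carries a tagged GLI1 that doxycycline induces, and all were harvested on day 6. Dox cells received 500 ng/ml of doxycycline for the last 24 hours and control cells were untreated. Of 12 samples in 6 groups of 2, the 3 lists used are named for the H3K27ac samples of both conditions and the dox GLI1 pulldown samples. Input samples of both conditions are among the others. Both conditions come from the same cell line, and no sample with doxycycline but without the transgene is among the labels, so an effect of GLI1 and one of doxycycline cannot be told apart. Peaks were called on the 2 replicates combined, so every comparison below sets 1 list against 1 list, with no replicate check and no test between conditions.

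Hox genes encode homeodomain transcription factors, and the order of the genes along a cluster follows the order in which they are switched on in the embryo, from the 3′ to the 5′ end. Genes at the 3′ end pattern the hindbrain and the back part of the heart field, where they respond to retinoic acid, and genes at the 5′ end pattern the trunk, limbs and genital region. Silent clusters are typically covered by Polycomb proteins, and acetylation of lysine 27 on histone H3 (H3K27ac) marks promoters and enhancers in use. GLI1 is a zinc finger transcription factor that carries out the response to Hedgehog signals.

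The signal of an interval is given as its fold enrichment, the pileup of reads at its summit over the local background set by the peak caller. Whether that background came from the input samples was not determined here. The control list held 67463 intervals over 59.9 Mb and the dox list 76437 intervals over 66.0 Mb. Background levels recovered from the lists put the dox pool at 1.28 times the depth of the control pool, if background follows depth. Overlapping intervals (1 bp or more) were joined across the lists into 94481 regions, of which 37.5% were shared, 35.5% were listed in dox alone and 27.1% in control alone. The log2 ratio of a shared region is that of its highest fold enrichments, dox over control, less the genome-wide median of such ratios, which was −0.13. Regions at a centred log2 ratio of at least 1 are called higher and those at −1 or less are called lower.

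Defining markers of the labelled cell type were only in part acetylated. Of 12 cardiac progenitor and cardiomyocyte genes, 7 had a control interval and 5 a dox interval within 1000 bp of an annotated end, against 50.3% and 51% of 20203 protein-coding genes. Isl1, a regulator of second heart field progenitors, had fold enrichments of 20.2 in control and 21.0 in dox cells, and Gata6, a cardiac and endodermal factor, of 26.7 and 20.5. Hand2, a regulator of the heart field, had 24.5 and 10.8 (log2 ratio −1.05), and Tnnt2, a troponin of the sarcomere, had 10.4 and 3.74 (log2 ratio −1.35). No interval was listed at the ends of Nkx2-5, Gata4, Tbx5, Mef2c or Myh6. Among genes of other cell types, Tbx6, a factor of presomitic tissue, stood at 5.12 in control and at 19.4 in dox cells, Foxa2, of endoderm and floor plate, had an interval of fold enrichment 34.0 in dox alone, and Cdx2, a posterior regulator of Hox genes, had 11.0 and 16.0. Cdh5 and Tal1, of endothelium and blood, had intervals of 3.13 and 4.75 in dox alone. The endothelial gene Pecam1 had 11.7 and 11.2 (log2 ratio 0.07), and Meox1, on the paraxial mesoderm list with Tbx6, had 3.79 in control alone. By whole list, a control interval and a dox interval stood at 2 and 1 of 5 paraxial mesoderm genes, 1 and 1 of 4 neural, 1 and 3 of 3 endothelial, 1 and 2 of 3 endoderm and 1 and 1 of 3 pluripotency genes, the last being Nanog at 12.8 and 7.87. The part of such differences in the cells of the pools in the Hox results below was not tested.

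The start sequences that can be shown are those of the Hox genes whose start carried an interval in both lists. Of 5 such genes, 4 have an entry in the RefSeq promoter table (GRCm38.p6), and the 250 bases before the start of each are given 5′ to 3′ on the strand of the gene. Capitals mark every match, on either strand, to one of the motifs searched. These were the GLI motif GACCACCCA, the Hox-Pbx motif TGATTNAT, the Cdx motif TTTATG and the retinoic acid receptor hexamer AGGTCA or GGGTCA, also as a direct repeat spaced by 1, 2 or 5 bases.
Hoxa2, chr6:52164832-52165081, minus strand: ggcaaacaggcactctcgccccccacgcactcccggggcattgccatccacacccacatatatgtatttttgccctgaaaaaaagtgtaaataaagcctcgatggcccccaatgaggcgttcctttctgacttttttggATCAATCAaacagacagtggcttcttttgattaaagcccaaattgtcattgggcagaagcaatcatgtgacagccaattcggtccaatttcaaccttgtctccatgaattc
Hoxb4, chr11:96318017-96318266, plus strand: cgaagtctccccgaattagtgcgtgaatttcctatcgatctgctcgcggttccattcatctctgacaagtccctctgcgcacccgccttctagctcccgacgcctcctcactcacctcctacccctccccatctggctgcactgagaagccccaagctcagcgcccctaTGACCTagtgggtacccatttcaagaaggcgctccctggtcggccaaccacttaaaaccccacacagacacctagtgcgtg
Hoxd3, chr2:74711743-74711992, plus strand: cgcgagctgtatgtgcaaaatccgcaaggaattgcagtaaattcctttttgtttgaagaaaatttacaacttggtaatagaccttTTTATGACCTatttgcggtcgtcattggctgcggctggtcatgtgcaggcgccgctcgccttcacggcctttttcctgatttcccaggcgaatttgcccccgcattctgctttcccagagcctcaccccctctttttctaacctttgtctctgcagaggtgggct
Hoxd8, chr2:74704365-74704614, plus strand: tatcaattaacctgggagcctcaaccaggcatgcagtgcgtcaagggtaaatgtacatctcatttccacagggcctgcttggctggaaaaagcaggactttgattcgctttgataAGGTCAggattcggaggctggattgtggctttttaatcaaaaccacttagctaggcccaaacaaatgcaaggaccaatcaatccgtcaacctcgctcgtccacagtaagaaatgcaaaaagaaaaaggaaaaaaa
The Hoxa2 sequence held a Hox-Pbx match on the other strand at positions 140 to 147, counted from the first base shown. Hoxb4 held a hexamer on the other strand at positions 170 to 175, and Hoxd8 one on the strand shown at 116 to 121. In Hoxd3 a Cdx match at positions 86 to 91 ran into a hexamer on the other strand at 90 to 95, so the marked stretch holds both.

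The motifs were also counted in the promoters of all genes. Of 24 promoter sequences of 22 Hox genes, 7 held a hexamer, against 23.8% of all 32851 promoters in the table, and 5 held a Cdx match, against 10.8%. A Hox-Pbx match was found in 2 of them (Hoxa2 and Hoxd11), against 2.82% of all promoters. No Hox promoter held the GLI motif or a direct repeat, which 0.225% and at most 0.0913% of all promoters held. A match is a run of letters and does not show binding.

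The clusters also hold 6 microRNA genes, and the miR-10 and miR-196 families among them are shown because they recur in several clusters. The seed, bases 2 to 8, is in capitals.
mmu-miR-10a-5p (HoxB): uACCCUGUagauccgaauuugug
mmu-miR-10b-5p (HoxD): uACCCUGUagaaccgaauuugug
mmu-miR-196a-5p (HoxB and HoxC): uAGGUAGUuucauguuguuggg
mmu-miR-196b-5p (HoxA): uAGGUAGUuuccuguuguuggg
Within each family the seed is identical. miR-10a-5p and miR-10b-5p differ by U12A, and miR-196a-5p and miR-196b-5p by A12C, counted from the 5′ end. No interval of either list came within 1000 bp of any of the 6 microRNA genes. Mir10a, next to Hoxb4, lay nearest to one, at 1542 bp in control and 1469 bp in dox cells. Mir196a-1 lay 3819 bp from a control and 10825 bp from a dox interval, Mir10b lay 13661 and 13608 bp away, and Mir196b, in the bare part of HoxA, 53645 and 53898 bp.

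Few Hox starts carried an H3K27ac interval, and in HoxA and HoxB most of the acetylated length of the core lay at the 3′ end. Within 1000 bp of the start site, 9 of 38 Hox genes (23.7%) had an interval in control cells and 5 (13.2%) in dox cells. Of 16190 protein-coding genes with a start in the promoter table, 49.8% had an interval within 1000 bp in control and 50.2% in dox cells. The starts were not taken alike, since those of the Hox genes are outer gene ends. Only 22 of the 38 Hox genes have a start in that table. All 5 genes with a dox interval also had a control interval, 4 had one in control alone and none in dox alone. Over all genes, 1.97% had an interval in control alone and 2.33% in dox alone. Of the remaining 29 Hox genes, neither list held an interval at the start.

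The share with an interval was highest among anterior genes, paralogues 1 to 3. In control cells 4 of 7 anterior, 3 of 15 central (paralogues 4 to 8) and 2 of 16 posterior genes (paralogues 9 to 13) had one. In dox cells the counts were 3, 2 and 0. These counts go by paralogue number and not by place. The starts used for Hoxa3, Hoxb3 and Hoxd3 lie beyond the paralogue 4 gene of their cluster, on the 5′ side, among central genes. By cluster, HoxB led with 5 of 10 starts in control and 2 in dox cells. HoxD followed with 3 and 2 of 9, HoxA had 1 of 10 in each list and HoxC none of 9 in either.

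**Figure D1:**
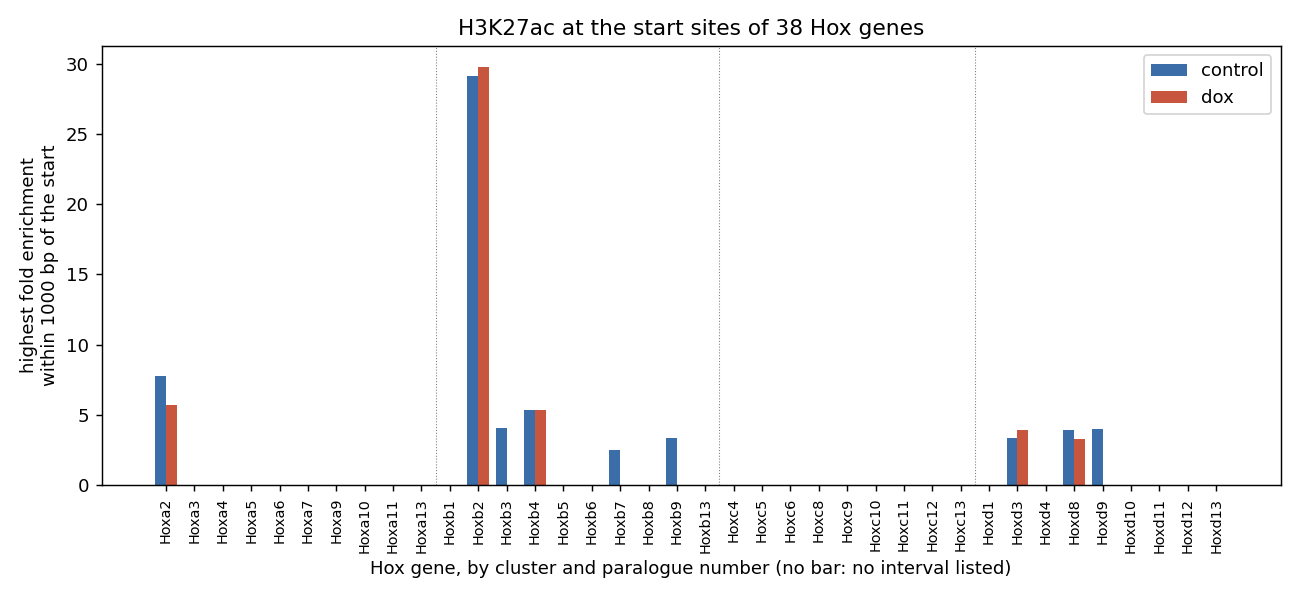
Highest H3K27ac fold enrichment of any region reaching within 1000 bp of a Hox start, in control (blue) and dox cells (red). The 38 genes are ordered by cluster and paralogue number, and the highest summit of a region may lie farther from the start. A missing bar means that no interval is listed, and each bar is 1 pooled list. Hoxb2 stands at 29.1 and 29.8, and every other gene is at 7.74 or lower. Summits within 1000 bp of the Hoxb2 start reach 26.1 and 19.6.

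Hoxb2, which acts in the hindbrain and was the highest member in both conditions, stood at 29.1 in the control and 29.8 in the dox list, from pileups of 142 and 144 reads. Its log2 ratio was 0.17, and its value covers a region of 11545 bp that runs on into Hoxb3. Taken only from summits within 1000 bp of the start, the ratio was −0.28. The recovered reads gave −0.07 with a 95% counting interval of −0.42 to 0.27, centred in the same way on all shared regions. The sign of the Hoxb2 ratio therefore depended on the measure, and none of these values passed the threshold for lower or higher.

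Hoxa2, the paralogue of Hoxb2 that specifies the second pharyngeal arch, was the highest member of HoxA at 7.74 in the control and 5.71 in the dox list (32 and 28 reads, log2 ratio −0.31). That value came from a region that begins 619 bp before the start and overlaps the antisense gene Hoxaas2. The region over the Hoxa2 start itself, chr6:52162763-52165045, had 6.48 and 5.27 (24 and 27 reads, log2 ratio −0.17). Its reads gave a log2 ratio of 0.08 (95% counting interval −0.77 to 0.93), so no difference was detectable there at this depth.

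Hoxb4, a central gene, had 5.32 in control and 5.31 in dox cells, from 24 reads in each, with a log2 ratio of 0.13. Hoxd3 had 3.36 and 3.94 (17 and 19 reads, log2 ratio 0.36), the largest ratio of a member, and Hoxd8 had 3.92 and 3.24 (14 and 14 reads, log2 ratio −0.14). Across these 5 genes the log2 ratio ran from −0.31 to 0.36 with a median of 0.13, beside 0.15 over all genes with an interval at the start in both lists. Only Hoxb2 was above the all-gene median fold enrichment at starts, 13.5 in control and 13.6 in dox cells.

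The 4 starts with an interval in control cells alone were weak. Hoxd9 had a fold enrichment of 4.01 from 15 reads and Hoxb3 of 4.08 from 16 reads. Hoxb9 had 3.38 from 12 reads and Hoxb7 2.48 from 15 reads. At a −log10 q of at least 10, 3 starts remained in each list. Hoxb3 was measured at its far upstream start, and its body holds much stronger regions, described with HoxB below.

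Read by paralogue number, both members of paralogue group 2 (Hoxa2 and Hoxb2) had an interval in both lists, the only group of which this was true. In group 1, neither Hoxb1 nor Hoxd1 had one within 1000 bp of the start, but a region listed in both lay 1909 bp from that of Hoxb1. In group 3, Hoxd3 had one in both lists, Hoxb3 in control alone and Hoxa3 in neither. The start used for Hoxa3 is its outer end beyond Hoxa6, and its body holds a region listed in both, described with HoxA below. In group 4 it was Hoxb4 alone of 4 genes, in group 7 Hoxb7, in group 8 Hoxd8, and in group 9 Hoxb9 and Hoxd9. Groups 5, 6, 10, 11, 12 and 13 had none.

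Counting the gene bodies in place of the starts, 11 of 38 genes were touched by a control interval and 8 by a dox interval, 7 of them by both. Over 20168 protein-coding genes the shares were 58% and 59.3%, but those genes are longer, with a median of 17488 bp against 3721 bp for the Hox genes. All 5 anterior genes touched in control cells were also touched in dox cells. Hoxb3 spans Hoxb4, so the bodies of these genes are not separate. Of 16 posterior genes 2 were touched in control and none in dox cells. The body touched in dox alone was that of Hoxc6.

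Measured by length, the cores held 37.9 kb of acetylated sequence in control cells and 26.4 kb in dox cells, 7.70% and 5.36% of 492 kb. Over the whole genome the acetylated length was larger in dox cells, as given above. The acetylated share of all genome bases was not computed, so these percentages have no genome share beside them. Each gene was assigned the stretch from its own 3′ end to the 3′ end of its 5′ neighbour. Anterior stretches held 75.4% of the acetylated bases of the cores in control and 83.5% in dox cells. Their acetylated share was 24.5% and 18.9%, against 2.56% and 1.08% of central and 2.42% and 1.22% of posterior stretches. These shares rest on HoxA, given below, and on HoxB, whose anterior stretches were acetylated over 34.3% and 26.0% of their length. HoxD did not share the pattern: its anterior stretches had 3.15% in control cells and none in dox cells, its central stretches 4.55% and 3.32%, and its posterior stretches 3.40% and none.

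**Figure D2:**
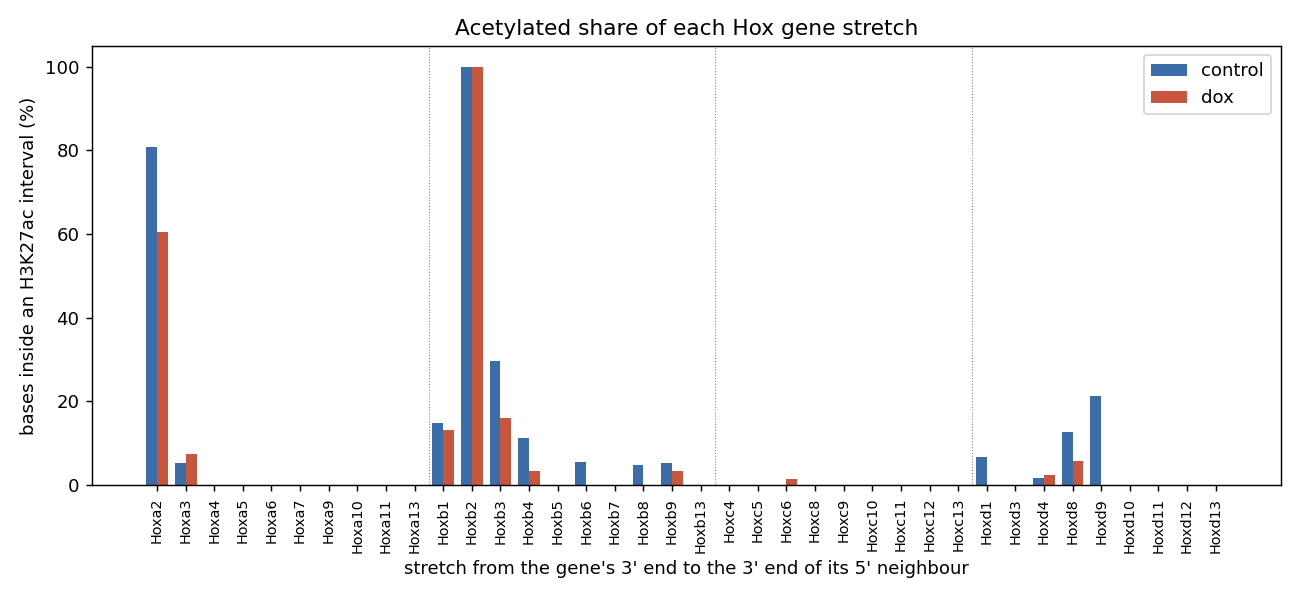
Percent of bases inside an H3K27ac interval for the stretch of each Hox gene, from its 3′ end to the 3′ end of its 5′ neighbour, in control (blue) and dox cells (red). The Hoxb2 stretch is at 100% in both, Hoxa2 at 80.8% and 60.5%, and the stretches from Hoxa4 to Hoxa13 are at 0.

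Single stretches differed widely. The Hoxb2 stretch was acetylated over 100% of its length in both lists and that of Hoxa2 over 80.8% in control and 60.5% in dox cells. Hoxb3 had 29.7% and 15.9%, Hoxb1 14.9% and 13.1%, and Hoxb4 11.3% and 3.34%. Hoxd9, a trunk and limb gene, had 21.3% in control and none in dox cells, and Hoxd8 had 12.6% and 5.66%. Hoxb6, at 5.49%, Hoxb8, at 4.67%, and Hoxd1, at 6.73%, were acetylated in control cells alone.

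HoxA was divided sharply. Its anterior stretches were acetylated over 33.4% of their length in control and 28.9% in dox cells, and no interval of either list lay in its central or posterior stretches, from Hoxa4 to Hoxa13. The strongest region of HoxA, 4562 bp over the non-coding RNA genes Hotairm1 and Hotairm2 at the 3′ end, had fold enrichments of 29.0 and 24.6 (log2 ratio −0.10). Its reads, 170 and 121, gave a log2 ratio of −0.58 (95% counting interval −0.93 to −0.24), so the reads lay lower in dox cells while the fold enrichment did so by less. Inside Hoxa3, the region chr6:52175114-52176436 had 3.73 and 5.40 (14 and 24 reads), the largest log2 ratio of any region in the 4 windows at 0.67. Its counting interval, −0.32 to 1.75, includes 0.

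**Figure D3:**
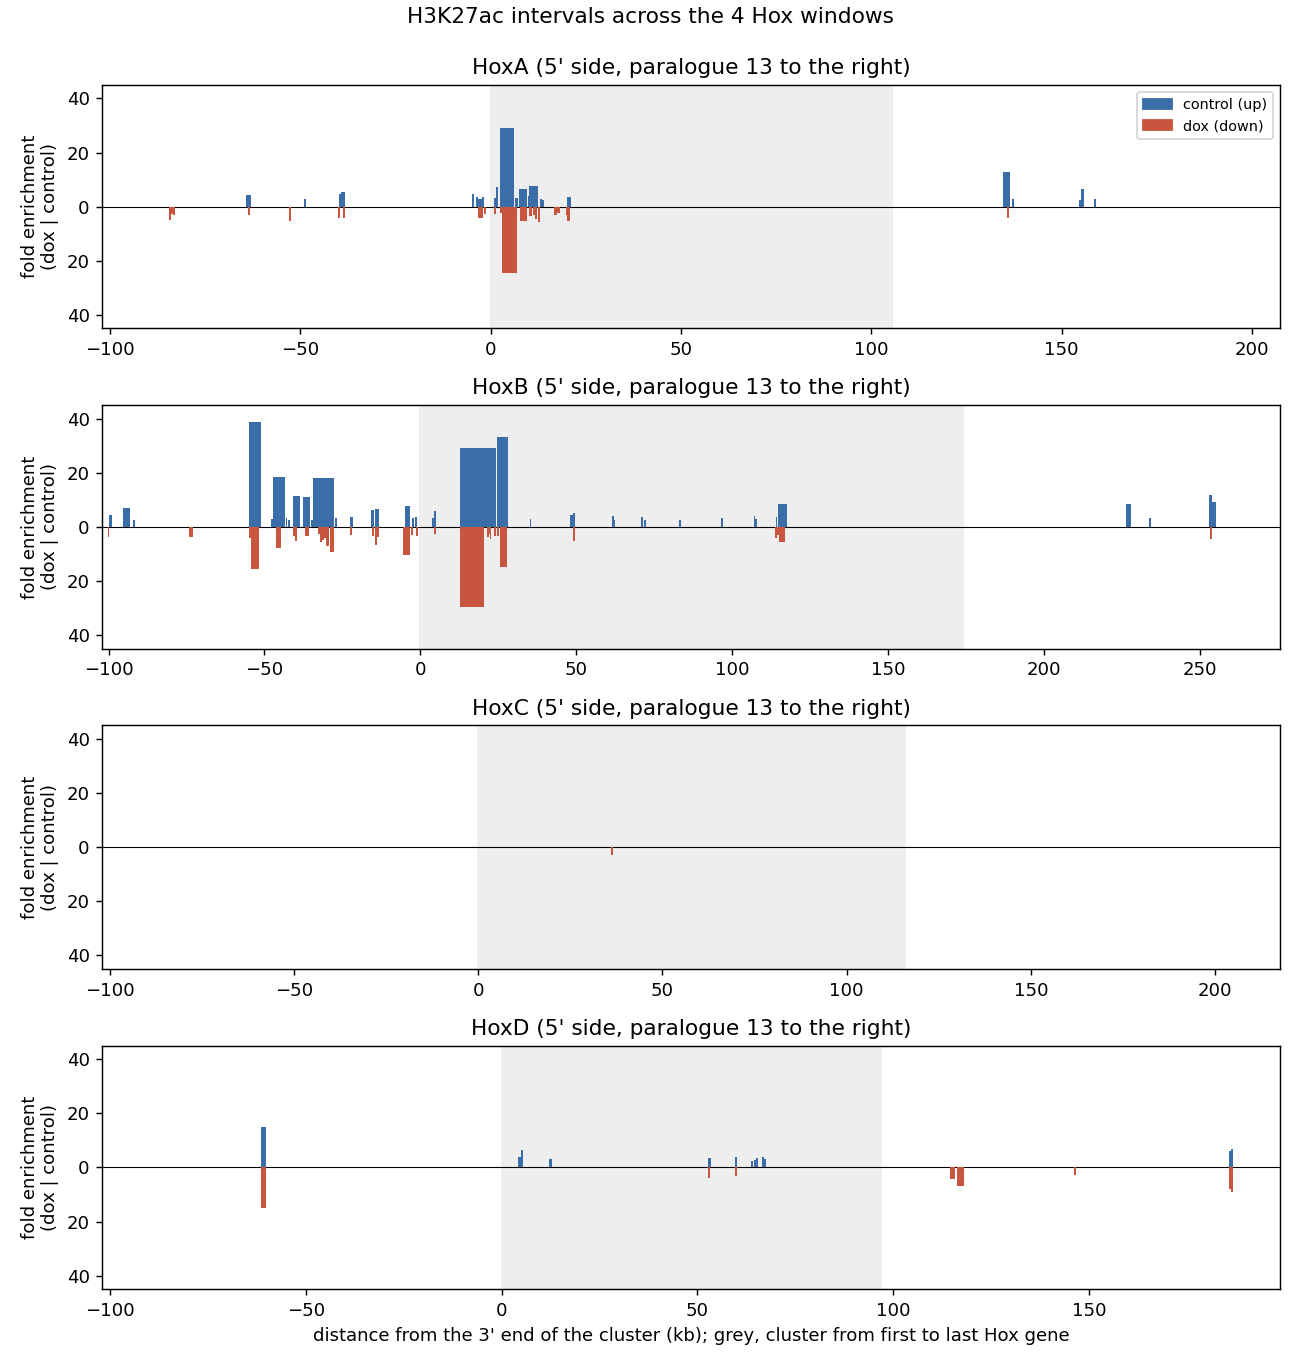
H3K27ac intervals of the 4 windows by distance in kb from the 3′ end of each cluster, with control fold enrichment upward in blue and dox fold enrichment downward in red; grey marks the cluster core, bars span the interval, and the narrowest are widened to be seen. Signal sits at the 3′ end of HoxA, over Hoxb2 and Hoxb3 and in the 3′ flank of HoxB, while HoxC shows 1 dox interval.

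In the 5′ flank of HoxA, 3.51% of the bases were acetylated in control and 0.724% in dox cells. Most of this was the region chr6:52290064-52291901, between Hottip and Evx1 and 29184 bp from the start of Hoxa13, the gene of the limb ends and genital region. It stood at 12.7 in the control and 4.24 in the dox list, from 60 and 23 reads, a log2 ratio of −1.45. Reads gave −1.48 with a 95% counting interval of −2.24 to −0.76. Evx1os, antisense to the homeobox gene Evx1, had intervals in control cells alone, the strongest at 6.57.

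HoxB held the most acetylation of the 4 clusters. Its core was acetylated over 13.2% of its length in control and 8.79% in dox cells. The region over Hoxb2 and the end of Hoxb3, chr11:96343887-96355431, was described above at 29.1 and 29.8, but intervals covered 11545 bp of it in control and 8874 bp in dox cells. The region next to it, chr11:96340175-96343736 inside Hoxb3 and reaching into its antisense gene Hoxb3os, had 33.3 and 14.7 (136 and 82 reads), a log2 ratio of −1.05. Its reads gave −0.82, with a counting interval of −1.24 to −0.42. Neighbouring regions of one gene thus differed, the first near the genome median and the second lower in dox cells by its fold enrichment.

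Further toward the 5′ end of HoxB, control cells had scattered weak intervals over Hoxb5os, Hoxb6, Hoxb8 and Hoxb9, with fold enrichments between 2.48 and 4.08, and dox cells had none there. Of 18 regions in the HoxB core, 6 were shared, 11 were listed in control alone and 1 in dox alone. The region at the non-coding gene Gm53, between Hoxb9 and Hoxb13, stood at 8.60 in the control and 5.71 in the dox list (34 and 32 reads, log2 ratio −0.46), and its counting interval of −0.92 to 0.56 includes 0.

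The 3′ flank of HoxB, beyond Hoxb1 and without an annotated protein-coding gene until Skap1, was the most acetylated of the cores and flanks in control cells, each taken whole. Intervals covered 30.6 kb of its 100 kb in control cells and 16.7 kb in dox cells, with highest fold enrichments of 38.9 and 15.6. Of its 22 regions, 12 were shared, 8 were in control alone and 2 in dox alone. The median log2 ratio of the shared regions was −0.84, 10 of 12 lay below 0 (50% of all shared regions do so) and 4 were lower (8.31% of all shared regions). The 4 include the region at the outer edge in Skap1, whose highest control interval lies past the window.

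The strongest region of any window in control cells, chr11:96419469-96423270, lies there, 53723 bp from the start of Hoxb1, which acts in the hindbrain and the back of the second heart field. It stood at 38.9 in the control and 15.6 in the dox list, from 148 and 75 reads, a log2 ratio of −1.19. Its reads gave −1.07 (95% counting interval −1.49 to −0.66). Toward Hoxb1, chr11:96411551-96415444 had 18.5 and 7.95 (98 and 37 reads, log2 ratio −1.09), and chr11:96403512-96405925 had 10.9 and 3.52 (49 and 21 reads), the lowest log2 ratio of the windows at −1.50. Between them, chr11:96406880-96409253 lay just short of the threshold at −0.94, with 11.3 and 5.38. The widest of the row, chr11:96395903-96402615, had 18.1 and 9.22 (86 and 62 reads, log2 ratio −0.84).

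Nearer to Hoxb1 the ratios were mixed. The 4 shared regions next to it on the 3′ side had log2 ratios from −0.05 to 0.56, and the first on its 5′ side, 1909 bp from the start, had −0.98 (5.87 and 2.72). The next shared region out on the 3′ side, chr11:96383049-96384115, had 6.24 and 3.19 (29 and 14 reads, log2 ratio −0.84). Its reads gave −1.14 with a counting interval of −2.18 to −0.18. The value of 0.56 belongs to chr11:96371562-96373716, 5816 bp from the start on the 3′ side, with 7.74 in the control and 10.4 in the dox list (32 and 53 reads). Its reads gave 0.63 with a counting interval of −0.02 to 1.32. At the outer edge of the window, a region in Skap1, a T cell adaptor gene, had 8.92 and 3.86 (log2 ratio −1.08). Its highest control interval lies past the edge, and its control interval inside the window had only 4.47. In the 5′ flank of HoxB, chr11:96114240-96115242 in the autophagy receptor gene Calcoco2 had 11.9 and 4.53 (log2 ratio −1.26). This region begins inside a stretch where peaks seem to be left out of the dox list, so its dox value may be incomplete.

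**Figure D4:**
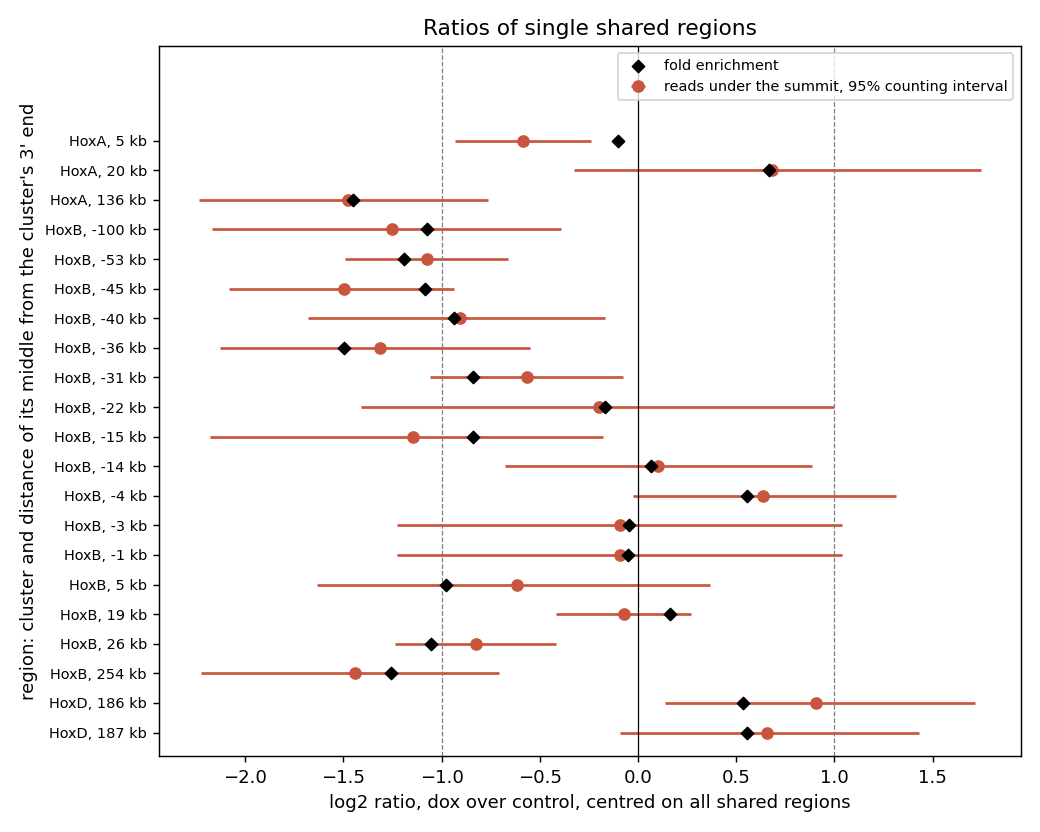
Centred log2 ratios, dox over control, of shared regions beyond 0.5 in size and of 6 others, named by cluster and by the distance of their middle from the 3′ end of the cluster (negative, 3′ flank); diamonds are fold enrichments, and circles are recovered reads with 95% counting intervals. The row of HoxB regions from −53 to −31 kb lies below 0, and the region at 19 kb, over Hoxb2, spans 0.

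HoxC was nearly bare. No control interval and no GLI1 site lay in its core or flanks. The dox list held 1 interval of 242 bp inside Hoxc6, with a fold enrichment of 3.02 from 13 reads, 2394 bp from the Hoxc6 start. An interval of this size, in a list that holds only intervals past the authors' threshold, does not show that control cells lack the signal.

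HoxD had 3.65% of its core acetylated in control and 0.991% in dox cells. Of 10 regions there, 2 were shared, over the start of Hoxd3 and 518 bp from that of Hoxd8, and 8 were listed in control alone. The strongest of the latter, at 6.47 from 28 reads, lay in the non-coding gene Haglr, 2777 bp from the start of Hoxd1, and 3 others lay in the body of Hoxd9 at 4.01, 3.43 and 3.13. In the flanks, Mtx2, a mitochondrial import gene on the 3′ side, had 14.9 and 15.0 (log2 ratio 0.15). Lnpk, an endoplasmic reticulum gene on the 5′ side, had 6.79 and 9.09 (log2 ratio 0.55). Another region inside Lnpk, chr2:74579054-74579421, which also overlaps the non-coding gene 4930445N08Rik, had 6.01 and 7.94 (log2 ratio 0.54). Its reads, 22 and 44, gave 0.91 with a 95% counting interval of 0.14 to 1.72, the only interval among the shared regions of the windows that lay wholly above 0.

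The 5′ flank of HoxD was the part of the windows with the largest difference toward dox cells in acetylated length, from 0.885% in control to 4.43% in dox cells. All 3 of its regions in 1 list alone were in dox cells. The region chr2:74647108-74648906 had a fold enrichment of 7.0 from 33 reads and chr2:74649367-74650741, beside it, 4.42 from 23 reads. The nearest control interval was 49215 bp from the first and 47380 bp from the second.

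Of the 2 GLI1 sites of the windows, called in dox cells, 1 lies inside the first of these, and the control pulldown was not analysed here. The site chr2:74647587-74647687 had a −log10 q of 26.8, at the 43.6th percentile of all 2605 sites, whose median was 30.8. It lay 5302 bp from Evx2, a homeobox gene at the end of HoxD without an interval in either list, and 20538 bp from the start of Hoxd13. Hoxd13, Hoxd12, Hoxd11 and Hoxd10 had this site within 50 kb of their start, 4 of 38 members, where 9.35% of all protein-coding starts have one. Their own starts and bodies had no interval in either list. Hoxd9 lay just outside, at 50076 bp.

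The other site, chr11:96441945-96442045, is in the 3′ flank of HoxB, 76199 bp from the start of Hoxb1. Its −log10 q of 19.9 was at the 28.5th percentile. It overlapped a dox interval of fold enrichment 3.59 by 2 bp, with a second of 3.68 next to it, and the nearest control interval was 18016 bp away. The windows thus held 2 sites in 89 regions, where 1.86% of all regions hold one. Both lay in regions listed in dox alone, 2 of the 13 such regions of the windows, where 2.91% of all dox-only regions hold a site. No site lay in a core, and none in the HoxA or HoxC windows. The row of lower regions of the HoxB flank held no GLI1 site. The list is restricted to replicated sites with a Gli motif, so a missing site does not show that GLI1 was not bound.

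Counted together, the 4 windows held 89 regions, of which 34 were shared, 13 (14.6%) were listed in dox alone and 42 (47.2%) in control alone. In the genome the shares were 35.5% and 27.1%. The median log2 ratio of the 34 shared regions was −0.16, with 23 below 0. None was higher, where 6.78% of all shared regions are, and 7 (20.6%) were lower, where 8.31% are. Of these 7, 6 were in HoxB, among them the Skap1 and Calcoco2 regions, with the limits given above. The reads of each of the 7 had a counting interval wholly below 0. Those reads enter the fold enrichment by which the 7 were chosen, so they are not separate support. Without the 3′ flank of HoxB the median was −0.12, and 3 of 22 shared regions were lower.

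Among the strong shared regions, with a geometric mean of both fold enrichments of at least 10, the Hox windows held 7. Of these 3 were lower and none higher, where 6.14% of all such regions in the genome were lower and 5.43% higher. Away from the ends of protein-coding genes, 3 of 4 were lower, where 12.2% of all such regions were. Strong regions of the Hox windows are few and lie side by side, so these counts describe the windows and were not tested.

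**Figure D5:**
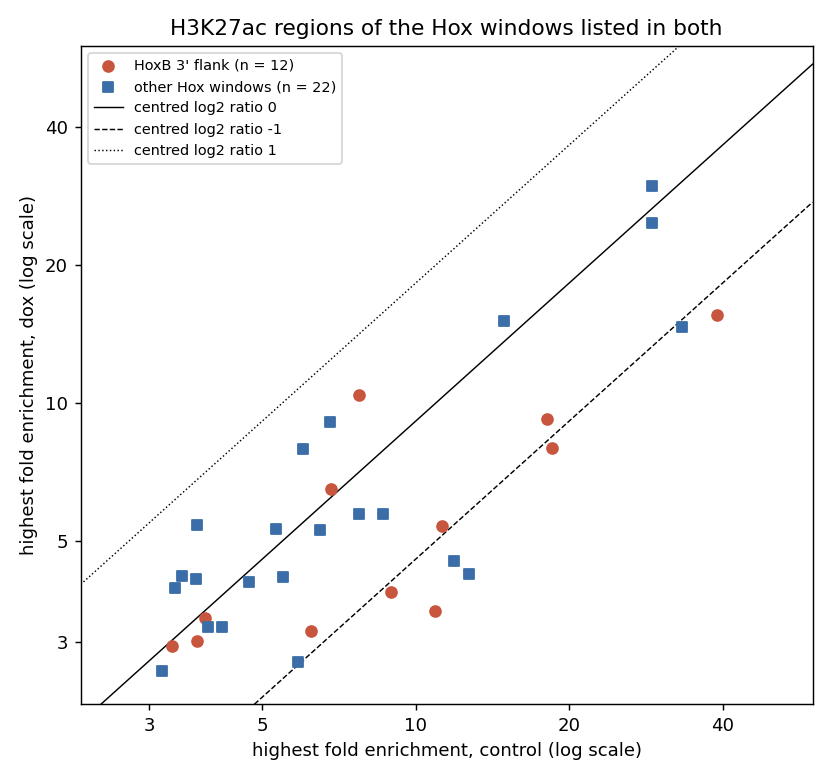
Highest fold enrichment in control and dox cells, on log scales, of the 34 regions of the Hox windows listed in both; red circles are the 12 regions of the HoxB 3′ flank, blue squares the other 22, and lines mark centred log2 ratios of 0, −1 and 1. No region lies above the upper line, and 7 lie below the lower one.

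Intervals were listed at most genes that work with or act on Hox genes. Of 8 Hox cofactors, homeodomain proteins that bind DNA jointly with Hox factors, 7 had an interval at an end in both lists and Pbx4 in neither. The median log2 ratio was 0.32, beside 0.14 over all genes with a value at their ends in both lists, and 1 was higher. Pbx2 went from 22.4 in the control to 43.0 in the dox list (log2 ratio 1.07), Pknox2 had 14.7 and 17.3 (0.36), Meis2 had 32.9 and 21.1 (−0.51) and Meis3 had 7.31 and 7.59 (0.19). By this measure 3.77% of 9750 genes were higher and 2.05% lower.

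Of 21 regulators of Hox genes, 14 had an interval in both lists and 7 in neither, beside 50.3% of all genes with one in control and 51% in dox cells. Their median log2 ratio was 0.40, and 1 was higher. Bmi1, a Polycomb protein, had 5.22 and 18.1 (log2 ratio 1.93), and Cbx2, another, 10.2 and 17.5 (0.92). Ring1, a Polycomb ubiquitin ligase, had 27.2 and 13.8 (−0.85), and Rara, a retinoic acid receptor, 15.3 and 10.7 (−0.38). Of 8 genes of the posterior second heart field and of retinoic acid response, 2 had a control and 3 a dox interval at an end. These counts include the members Hoxa3, in control, and Hoxb1, in dox, at the ends opposite the starts used above. The region at Hoxb1 was listed in both (3.85 and 3.39). Dhrs3, a retinal reductase, had 2.62 and 8.43 (log2 ratio 1.82). Aldh1a2, which makes retinoic acid, Cyp26a1, which degrades it, and Rarb, a receptor it induces, had none. Among 9 homeobox relatives outside the clusters Evx1 alone had an interval, in control cells at 2.79.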

How the data were processed

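The data were 3 lists of mouse H3K27ac and GLI1 regions. The submitters' processing notes name MACS2 2.1.1, Bowtie2 2.3.2 and SAMtools 1.5 and the build mm10 without their roles, and per the deposited names replicates were combined before peaks were called. The deposited fold enrichment is a ratio of pileup to local background. The deposited −log10 p and −log10 q come from the authors' peak caller, and the lowest −log10 q was 1.31 in control and 1.33 in dox cells. The deposited whole-number score repeats the −log10 q and was not used further. The GLI1 list holds sites of 101 bp, deposited as replicated and holding a Gli motif.

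For 99.96% of control and 99.92% of dox summits, a whole number of reads gave back both deposited values to within 0.01, with a uniform background of 2.83 and 3.63 reads. The exact 95% intervals of read ratios cover counting error only. Read ratios were centred on their own median over 35276 shared regions, −0.27 after scaling for depth. Library sizes are unknown from the lists. Running peak numbers skip in places, which were read as peaks left out. Such stretches touched only the outer 18.8 and 20.1 kb of the HoxB and 10.0 kb of the HoxD windows, and 1697 protein-coding genes with an end in one stayed out of the backgrounds and lists. A control region of Calcoco2 opposite a stretch skipped in the dox list counts as control-only, although its dox signal was not analysed here. The lower region of Calcoco2 begins in the same stretch, so its dox value may be incomplete.

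A start is the annotated outer end of a Hox gene on its paralogue 13 side, from a GRCm38.p6 table without exons. Of 39 Hox genes, 1 is not reported here, but it helped to set the windows, and some genes of the other lists are not reported here either. Every member is accounted for. Named in full are the highest member of a cluster, members with a ratio or an interval in 1 list, those near a GLI1 site, and paralogues, and other lists by counts with their highest and lowest genes. The members, lists and tests were chosen with earlier results of these data known, and the stretches, gene bodies, strong regions and region reads were added after seeing the values. No test between conditions was made, since each is 1 pooled list. Python 3.11.15, pandas 2.3.3, numpy 2.4.6 and scipy 1.17.1 were used, and the merging of regions was tested on simulated data.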

Additional observations from a re-analysis of the deposited data

How the results depend on the processing

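No paired analysis was possible because the replicates were pooled before peaks were called, and leaving out a replicate could not be run for the same reason. At a −log10 q of at least 10, 3 starts in control and 3 in dox cells remained in place of 9 and 5, dox-only minus control-only regions came to −8 in place of −29, 3 shared regions were lower in place of 7, and the HoxB 3′ flank was acetylated over 25.4% in control and 9.97% in dox cells. Within the cores the difference dox-only minus control-only was −19 and 1 shared region was lower, and with flanks of 50 kb 4 were. Without centring, the median log2 ratio was −0.30 in place of −0.16, which is the shift of the centring itself. The GLI1 sites numbered 1 with flanks of 50 kb and 5 with flanks of 200 kb. Start windows of 500 and 2000 bp gave 7 and 10 control and 4 and 6 dox starts, and the other settings moved the median to between −0.18 and −0.14. Of the 34 shared region ratios, 2 changed sign without centring, 2 with width-weighted means and 5 with recovered reads. The 5 include those over the starts of Hoxa2 and Hoxb2. None of the 7 lower regions changed sign, but they were chosen for the size of their ratio. The start in the promoter table, tried after seeing the data for 3 genes whose 2 starts differ, gave no ratio. Depth limits the weak intervals: all control starts with an interval but that of Hoxb2 rest on 12 to 32 reads.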
